A study of Mus musculus with 10 samples.

Results

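The genes described here are 10 genes of fat cell hormones, lipid droplet proteins and adipocyte markers, Adipoq, Retn, Lep, Plin1, Plin4, Cidec, Cidea, Pparg, Lgals12 and Adig, as they were measured in 3 regions of the mouse heart. They were found through the RefSeq accession of each probe, which gave 12 probes for the 10 genes, among 56605 probes and 22911 named genes in all. The study looked for genes of the right ventricle. Hearts of C57BL/6N mice, with no genetic change or treatment in the labels and no age or sex in the sources used here, had been perfused with cold saline. They had been cut into the right ventricle (RV, 4 arrays), the left ventricle (LV, 3 arrays) and the septum between them (3 arrays), with different individuals used for each experiment, and RNA of each piece was put on an Agilent array of its own with the dye Cy3.

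Fat cells store triglyceride in lipid droplets, whose surface proteins set how fast the store is built up and broken down, and they release hormones, the adipokines, into the blood. The nuclear receptor Pparg, with the C/EBP factors, drives the genes of the mature fat cell. The surface of the heart carries fat next to its muscle, and heart muscle itself burns fatty acids and holds small lipid droplets, so some lipid droplet genes are read in muscle cells too.

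Between 53.7% and 64.0% of the 59305 spots per array that were not controls were well above background, and no spot was saturated. The number of arrays limits the precision of every value below. Replicates 1 and 2 shared the first slide, and the higher-numbered replicates shared the second. The tissue label fitted its markers, since all 12 heart muscle markers, among them Myh6 and Tnnt2, were well above background on each array. The transcripts were read from whole pieces of tissue, in which fewer cells of a type and less RNA per cell cannot be told apart. A level below is the log2 signal of a probe relative to the 75th percentile of its array, at which the level is 0. A difference is that of the group means on the log2 scale, tested with limma, and a call is an adjusted p below 0.05 over the 30236 probes tested.

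Promoters are shown for 4 of the genes, Adipoq, Retn, Plin1 and Cidec, because these 4 moved together across the arrays. The sequences are the 250 bases before the gene start in RefSeq, on assembly GRCm38.p6, written 5′ to 3′ on the strand of the gene. Capitals mark the letters TTGCNNAA, a form of the C/EBP recognition sequence, on either strand. The first lies at chr16:23146286-23146535 on the plus strand, the second at chr8:3655520-3655769 on the plus strand, the third at chr7:79732777-79733026 on the minus strand and the last at chr6:113435761-113436010 on the minus strand.
Adipoq: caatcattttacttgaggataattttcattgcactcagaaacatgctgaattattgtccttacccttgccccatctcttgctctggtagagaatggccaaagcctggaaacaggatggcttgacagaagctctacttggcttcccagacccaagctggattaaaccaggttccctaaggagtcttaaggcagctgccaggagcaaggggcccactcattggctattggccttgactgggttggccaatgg
Retn: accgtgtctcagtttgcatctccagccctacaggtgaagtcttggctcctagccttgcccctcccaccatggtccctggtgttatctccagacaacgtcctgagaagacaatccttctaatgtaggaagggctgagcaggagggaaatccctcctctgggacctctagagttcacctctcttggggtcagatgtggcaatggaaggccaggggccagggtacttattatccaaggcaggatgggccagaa
Plin1: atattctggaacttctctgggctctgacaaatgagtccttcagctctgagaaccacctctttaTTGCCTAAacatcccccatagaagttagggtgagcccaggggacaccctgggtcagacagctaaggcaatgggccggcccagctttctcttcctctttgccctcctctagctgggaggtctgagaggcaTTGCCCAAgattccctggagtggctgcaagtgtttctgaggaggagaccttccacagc
Cidec: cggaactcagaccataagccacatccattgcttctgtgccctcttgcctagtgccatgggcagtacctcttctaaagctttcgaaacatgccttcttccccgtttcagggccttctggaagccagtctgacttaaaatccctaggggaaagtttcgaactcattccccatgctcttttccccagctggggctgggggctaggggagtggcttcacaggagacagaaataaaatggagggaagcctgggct
The table held windows for 8 of the 10 genes, 11 in all, and none for Cidea or Lgals12. Of the 4 windows printed, that of Plin1 held TTGCNNAA at 2 places, and 9.56% of the 32851 windows of this length in the table held it at least once. Among the other members, Lep held it at 1 place, a second start of Cidec at 1 and 1 of the 3 starts of Pparg at 2. No member window held 2 copies of AGGNCA in the same direction with 1 base between them, a form of the PPAR and RXR recognition sequence that 0.34% of all windows held. The TATA box letters TATAAA, held by 12.4% of all windows, were found on either strand at 1 start of Pparg and in no other member window. These matches describe letters and are neither sites nor causes.

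The 10 genes fell into a set of 4 with large differences between regions and a set of 6 whose differences between regions lay between -0.40 and 0.28. Adipoq, Retn, Plin1 and Cidec were called higher in the RV than in the LV, and for Adipoq, Retn and Cidec the septum mean lay between those of the ventricles. No member was called lower in the RV. The calls came to 4 of 10 genes, all higher, where 3.86% of all probes tested were called in this comparison and 2.31% were called higher in the RV. The 10 genes were chosen with earlier results of these data known, so their share of calls only describes them. Against the septum 2 of 10 genes, Plin1 and Cidec, were called, both higher in the RV and both lost in most fits that left out 1 array, where 2.08% of all probes were called, 1.2% higher and 0.873% lower in the RV. The RV arrays lay wholly above the LV arrays for 4 of the 10 genes and below them for 1, where 8.1% and 11% of all probes did so, and above the septum arrays for 3 and below them for 1, where 5.86% and 7.82% did so. Over all 10 genes the median difference was -0.10 between RV and LV and -0.08 between RV and septum, beside -0.04 and -0.03 over all probes tested. Both comparisons use the same 4 RV arrays. All 10 genes passed the filter on dim probes (well above background throughout 1 region or more), but Plin1 passed only through the RV.

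**Figure D1:**
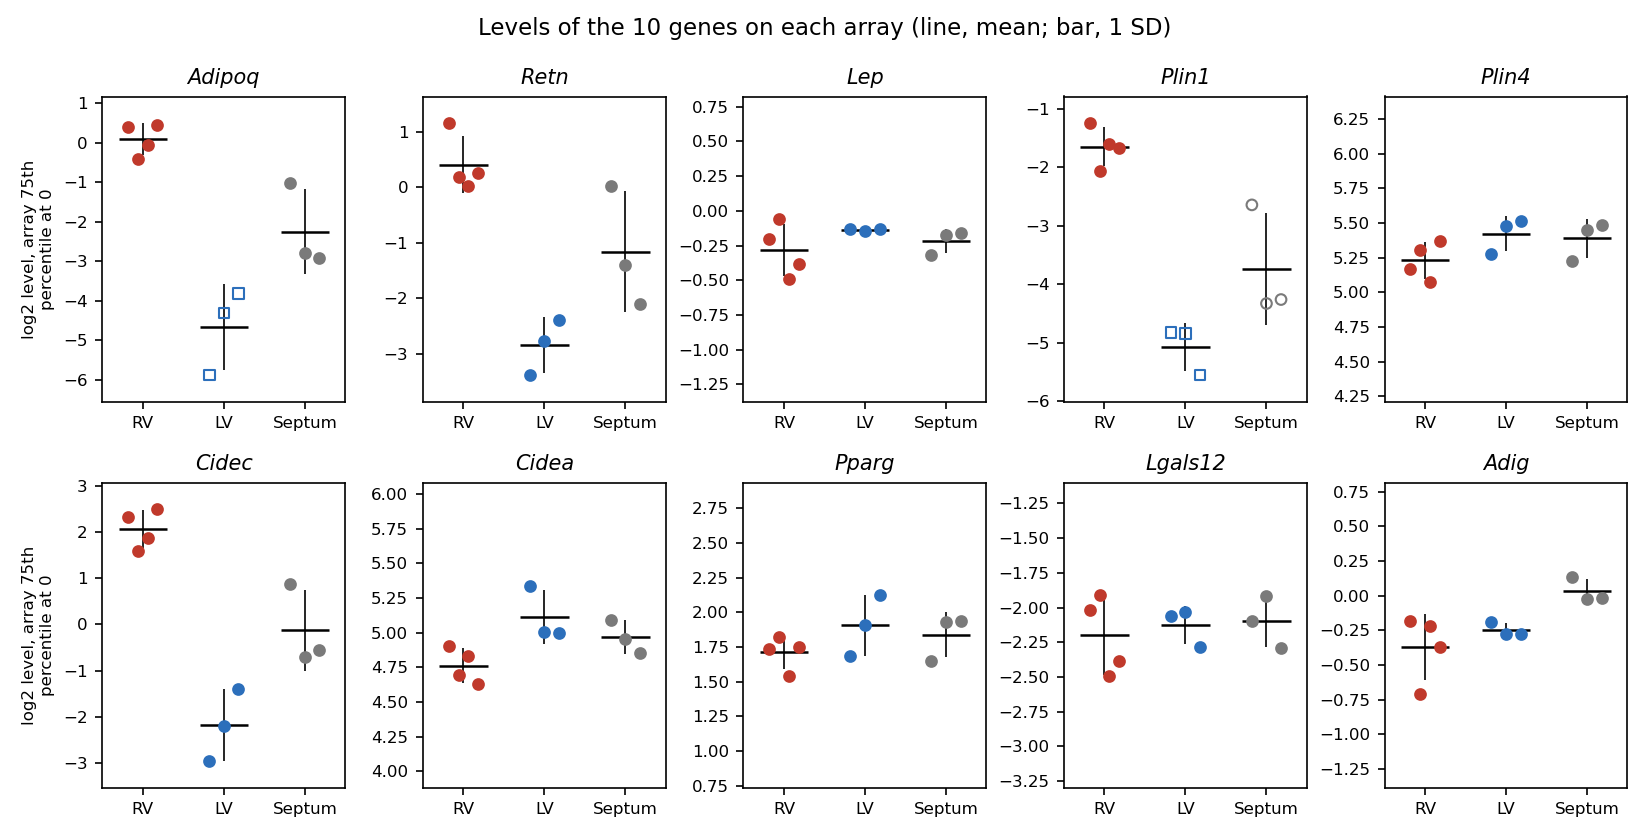
Log2 level of each gene on each array, relative to the 75th percentile of the array at 0, for 4 RV, 3 LV and 3 septum arrays (y axes differ between genes; line, mean; bar, 1 SD). Filled circles mark regions with all arrays well above background, open circles those with some and open squares those with none; Adipoq, Retn, Plin1 and Cidec separate RV from LV and the other 6 genes stay within a narrow range.

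Among the hormones, Adipoq, which encodes adiponectin, the fat cell hormone that raises insulin sensitivity, had levels of 0.40, -0.41, -0.04 and 0.45 on the 4 RV arrays. Its levels were -5.89, -4.31 and -3.81 on the LV arrays and -1.02, -2.80 and -2.92 on the septum arrays. All RV arrays were above all septum arrays, which were above all LV arrays, and no LV array was well above background for this probe. The LV value is therefore only a bound, and Adipoq was at least 14.6-fold higher in the RV than in the LV, taken as the mean of the brighter region over the lowest signal well above background on each dimmer array. The fitted difference was 4.77 ± 0.57 (SE, limma adjusted p = 0.00377). Between RV and septum the difference was 2.35 ± 0.57 (adjusted p = 0.0776), which missed the threshold. It was called with the slide as a block (2.32, adjusted p = 0.0496), with normexp background correction (1.76, adjusted p = 0.0135) and by the adjusted analysis of variance. Pairing the arrays by replicate number gave no call (2.23, limma adjusted p = 0.118). Of the 14 alternatives other than leaving out 1 array, 9 gave no call. Leaving out 1 array gave none in 9 of 10 fits, with limma adjusted p up to 0.285. The septum was at least 2.88-fold above the LV, with a fitted difference of 2.42 ± 0.60 and an adjusted p of 0.703 over all probes.

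Retn encodes resistin, another hormone that mouse fat cells secrete. On the RV arrays its levels were 1.16, 0.19, 0.02 and 0.26, on the LV arrays -3.38, -2.77 and -2.39 and on the septum arrays 0.03, -1.41 and -2.11. Every RV array lay above every LV array, while septum array 1 reached the level of the lower RV arrays, so RV and septum overlapped. The RV exceeded the LV by 3.26 ± 0.48 (adjusted p = 0.00806), a 9.55-fold difference. It exceeded the septum by 1.57 ± 0.48 (adjusted p = 0.161), not a call. A second probe of Retn, also well above background on all arrays, gave 3.66 ± 0.53 (adjusted p = 0.00736) and 1.85 ± 0.53 (adjusted p = 0.133).

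Lep, which encodes leptin, the fat cell hormone that restrains appetite, did not follow the other adipokines. Its levels were -0.20, -0.06, -0.49 and -0.38 in the RV, -0.13, -0.15 and -0.13 in the LV and -0.32, -0.18 and -0.16 in the septum. The RV arrays spanned the levels of both other regions. The RV minus LV difference was -0.15 ± 0.10 (adjusted p = 0.490), with a 95% interval of -0.38 to 0.09, which lies far below the lowest end, 2.18, of the intervals of the 4 called genes.

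Of the proteins on the lipid droplet, Plin1 encodes perilipin 1, which coats the droplets of fat cells and gates the access of lipases. In the RV its levels were -1.24, -2.06, -1.60 and -1.68, in the LV -4.82, -4.84 and -5.55 and in the septum -2.64, -4.33 and -4.26. The probe was well above background on 4 RV arrays, on septum array 1 and on no LV array. Plin1 was at least 4.37-fold higher in the RV than in the LV, with a fitted difference of 3.43 ± 0.40 (adjusted p = 0.00377). All RV arrays also lay above all septum arrays, and the fitted difference of 2.10 ± 0.40 was called (adjusted p = 0.0326). Only 1 of the 3 septum arrays measured this probe above background, so the size of that difference rests mostly on signals at background, and the call was lost in 8 of 10 fits without 1 array.

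Cidec encodes a droplet protein that lets droplets of fat cells fuse and grow. Its levels were 2.31, 1.58, 1.87 and 2.49 in the RV, -2.95, -2.18 and -1.39 in the LV and 0.86, -0.71 and -0.54 in the septum. It was well above background on all 10 arrays and the regions did not overlap in any of the 3 comparisons. The RV exceeded the LV by 4.24 ± 0.45 (adjusted p = 0.00307), an 18.9-fold difference with both sides measured. It exceeded the septum by 2.19 ± 0.45 (adjusted p = 0.0432), a 4.57-fold difference. Blocking on the replicate number, which sets aside the unpaired RV array 4, ended that call (2.05, adjusted p = 0.0699). So did 7 of 10 fits without 1 array, among them that without RV replicate 4 (2.05, adjusted p = 0.123).

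Plin4, whose protein coats droplets as perilipin 1 does, showed no such step. Its levels were 5.17, 5.31, 5.08 and 5.37 in the RV, 5.28, 5.47 and 5.51 in the LV and 5.22, 5.45 and 5.49 in the septum. The regions overlapped, and the RV minus LV difference of -0.19 ± 0.11 (adjusted p = 0.363) had a 95% interval of -0.43 to 0.05.

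Cidea, a relative of Cidec that is best known from brown fat, had levels of 4.90, 4.70, 4.83 and 4.63 in the RV, 5.34, 5.004 and 4.998 in the LV and 5.09, 4.96 and 4.86 in the septum. It was the only member whose RV arrays all lay below the LV arrays, while the RV overlapped the septum. The difference from the LV was -0.35 ± 0.11 (adjusted p = 0.124), not a call. Blocking on the replicate number gave -0.30 (limma adjusted p = 0.0398), below the threshold.

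Pparg, the nuclear receptor that drives fat cell differentiation, had levels of 1.74, 1.82, 1.54 and 1.75 in the RV, 1.68, 1.91 and 2.12 in the LV and 1.65, 1.93 and 1.94 in the septum. The regions overlapped, with an RV minus LV difference of -0.19 ± 0.12 (adjusted p = 0.439) and a 95% interval of -0.47 to 0.08. The receptor of the fat cell programme gave no call in a comparison in which Adipoq, Plin1 and Cidec, known as its targets, were called.

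The last 2 genes are adipocyte markers. Lgals12 encodes a galectin found on the droplets of fat cells, and its levels were -2.02, -1.91, -2.49 and -2.39 in the RV, -2.06, -2.04 and -2.28 in the LV and -2.09, -1.91 and -2.29 in the septum. The regions overlapped in all comparisons, and the RV minus LV difference was -0.08 ± 0.16 (adjusted p = 0.840). A second probe of Lgals12 was well above background on 0 of 10 arrays and was not tested.

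Adig encodes adipogenin, a small membrane protein that appears as fat cells mature. Its levels were -0.18, -0.71, -0.22 and -0.37 in the RV, -0.19, -0.28 and -0.28 in the LV and 0.13, -0.02 and -0.02 in the septum. The RV overlapped the LV, whereas all RV arrays lay below all septum arrays. The RV minus septum difference was -0.40 ± 0.12 (adjusted p = 0.169), not a call, and the RV minus LV difference was -0.12 ± 0.12 (adjusted p = 0.648).

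**Figure D2:**
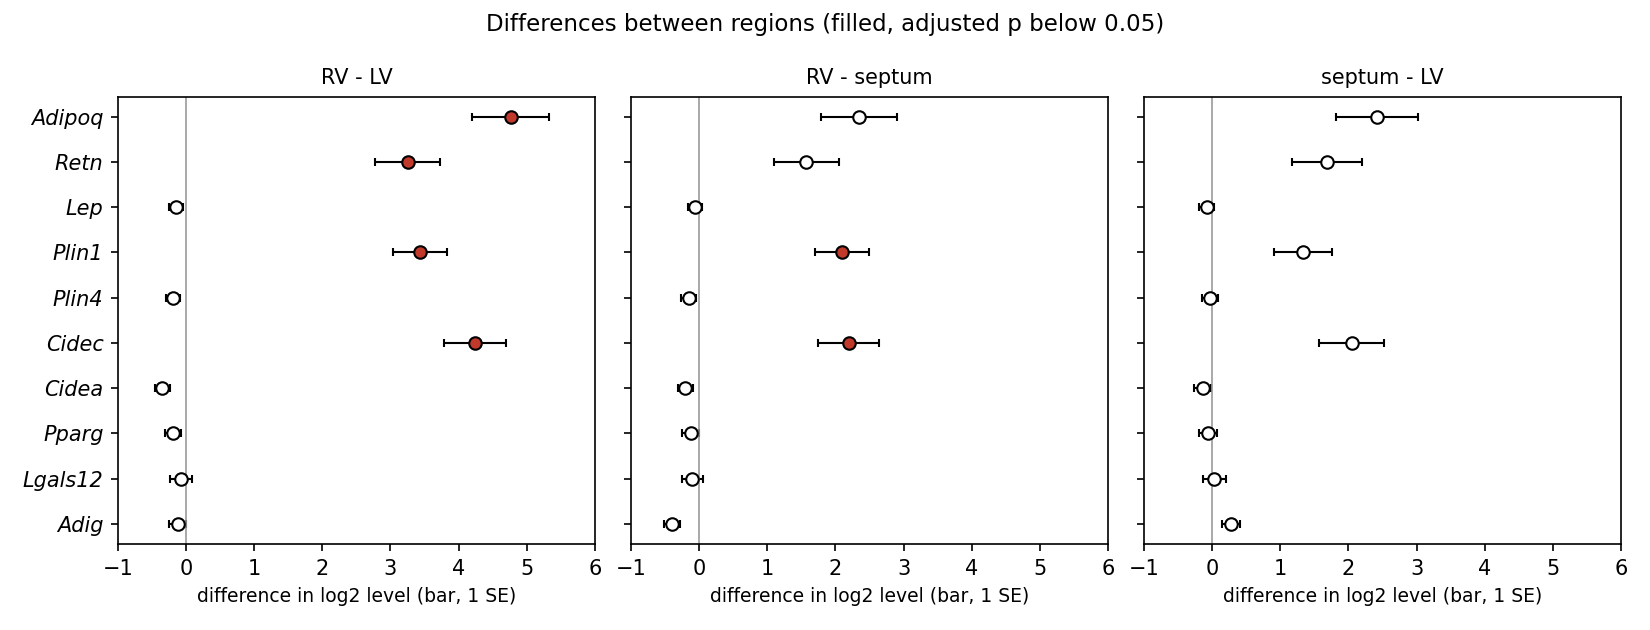
Difference of the mean log2 levels of 2 regions for each gene in the 3 comparisons (point, difference; bar, 1 SE; filled, adjusted p below 0.05). The 4 called genes lie at 3.26 to 4.77 in RV minus LV and at 1.57 to 2.35 in RV minus septum, while the other 6 genes lie near 0 in each comparison.

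The septum exceeded the LV by 1.68 ± 0.51 for Retn and by 2.05 ± 0.48 for Cidec (limma adjusted p = 1.0 and 0.597), both measured on every array. For Plin1, which was above background on 1 septum array and no LV array, the septum was at least 1.02-fold higher, so no middle place can be read for it. In this comparison the arrays of the septum lay above those of the LV without overlap for 5 of the 10 genes, these 4 and Adig, where 3.55% of all probes did so. For Lep the septum arrays all lay below the LV arrays, as for 3.45% of all probes. No member was called by limma, as was none of the 30236 probes (0%), and 4 of the 10 genes had an unadjusted p below 0.05. The Tukey-corrected analysis of variance named in the methods was run on the same values. In its adjusted form only the F test over the 3 regions was adjusted over all probes. The Tukey p of each pair of regions was not. That F test also holds the step from LV to RV, so it is no adjusted test of septum against LV. Adipoq and Cidec, 2 of the 10 genes, passed both at 0.05. No share of all probes is given here for this count or for the unadjusted limma count, so neither has a background.

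The 4 genes rose and fell together from array to array. Across the 10 arrays their levels had a Pearson r of 0.934 to 0.996 in all 6 pairs, whereas r between one of them and one of the other 6 genes ran from -0.76 to -0.07. The 10 points share the step between regions, so these values describe the arrays only. The order within regions was shared in part. In the septum, array 1 stood highest for all 4 genes. In the LV, array 3 stood highest and array 1 lowest for Retn and Cidec, while Adipoq and Plin1 were not well above background there and have no order. Their r rests in part on such signals. Plin4 and Pparg had an r of 0.904 with each other, and Lep and Lgals12 one of 0.706.

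The RV against LV calls of the 4 genes did not rest on a single array. They held in all 10 fits that left out 1 array, with differences of 4.16 to 5.20 for Adipoq, 2.99 to 3.48 for Retn, 3.19 to 3.57 for Plin1 and 3.85 to 4.63 for Cidec. On the first slide alone, the differences were 5.09 for Adipoq, 3.75 for Retn, 3.18 for Plin1 and 4.52 for Cidec. Plin1 was above the threshold there (limma adjusted p = 0.0596). On the second slide alone they were 4.01, 2.53, 3.92 and 3.57 in the same order. That slide held LV array 3 as its only LV array, so these values rest on that array for the LV. With normexp background correction Adipoq fell to 2.81 and Plin1 to 1.44, both still called. The adjusted analysis of variance did not call Retn (adjusted p = 0.0594).

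The RV against septum calls were less firm. That of Plin1 held in 2 of 10 fits without 1 array, those without LV replicate 3 or septum replicate 1, with differences of 1.81 to 2.65 and adjusted p up to 0.141 over all 10. That of Cidec held in 3 of 10, those without LV replicate 1, LV replicate 3 or septum replicate 1, with 1.90 to 2.69 and adjusted p up to 0.183. Without septum replicate 1 all 4 genes were called against the septum, at 2.96 for Adipoq, 2.17 for Retn, 2.65 for Plin1 and 2.69 for Cidec.

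Beyond the 10 genes, the pathway was followed in 7 lists of 111 genes, of which 110 were on the array and 100 were tested. Between RV and LV 10 of the 100 were called higher and 3 lower, beside 2.31% and 1.55% of all probes. Blocking on the replicate number brought the calls to 32, where 14.9% of all probes were then called. Between RV and septum 2 were called higher and 2 lower, near the 1.2% and 0.873% of all probes, and 12 in all with the block, beside 7.12%. Between RV and LV the white fat cell markers had the largest share of calls of the 7 lists, and the droplet and lipolysis genes had none in any comparison. All 7 lists were chosen with earlier results of these data known, so these shares only describe them.

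The other droplet, triglyceride synthesis and lipolysis genes gave 0 of 23 calls in either direction. Between RV and LV 8 had an unadjusted limma p below 0.05, all of them lower in the RV. The median difference was -0.15, beside -0.04 over all probes tested. The widest were Cideb, another member of the Cide family, at -0.53 ± 0.16 (adjusted p = 0.104) and Pnpla3, a triglyceride lipase relative, at 0.50 ± 0.23 (adjusted p = 0.281). The members Plin1 and Cidec, already called, differed by more than any of these 23 genes, whose differences lay between -0.53 and 0.50. The droplet members Plin4 and Cidea did not, at -0.19 and -0.35.

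Fatty acid supply and synthesis gave 2 of 17 calls, both higher in the RV. Fasn, the fatty acid synthase, had levels of 4.50, 3.59, 4.56 and 3.87 in the RV and 2.62, 3.04 and 2.99 in the LV, a difference of 1.25 ± 0.28 (adjusted p = 0.0425). Pck1, which serves glycerol synthesis for triglyceride in fat cells, was not well above background on any LV array and was at least 3.39-fold higher in the RV (fitted 3.29 ± 0.75, adjusted p = 0.0446). Like Plin1 it was tested only because all RV arrays read it above background. Blocking on the replicate number ended that call, at 2.94 (adjusted p = 0.0651). Leaving out 1 array ended the call of Fasn in 8 of 10 fits and that of Pck1 in 7 of 10, with differences of 1.11 to 1.43 and 2.60 to 4.03.

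Transcription factors of the fat cell gave 1 higher and 1 lower call of 16. Cebpa, a partner of Pparg in mature fat cells, exceeded the LV by 0.69 ± 0.12 (adjusted p = 0.0165) and the septum by 0.65 ± 0.12 (adjusted p = 0.0286). Its levels were -1.76, -1.80, -1.62 and -1.57 in the RV, above -2.23 to -2.67 in the LV and -2.28 to -2.44 in the septum. Without RV replicate 4 its difference from the LV was 0.65 (adjusted p = 0.0520), above the threshold, and the call against the septum held in 3 of 10 such fits. Rxrg, which encodes a partner receptor of Pparg, was lower by 0.29 (a difference of -0.29 ± 0.06, adjusted p = 0.0356), and that call held in 0 of 10.

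Other proteins that fat secretes gave 2 higher calls of 16 against the LV. These were Cfd, complement factor D or adipsin, at 4.78 ± 0.54 (adjusted p = 0.00338), a gene that the study itself had picked on these samples, and Rbp4, a retinol carrier, at 3.20 ± 0.37 (adjusted p = 0.00377). Sfrp5, a secreted Wnt inhibitor, went another way, with levels of -0.67, -1.28, -1.78 and -1.60 in the RV and 0.85, -0.37 and 0.44 in the septum. It was lower in the RV than in the septum (difference -1.64 ± 0.31, adjusted p = 0.0320), a call that 8 of 10 fits without 1 array did not keep.

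Receptors for the hormones gave 0 of 6 calls in limma against either region, with 2 at an unadjusted p below 0.05 against the LV. The largest differences were those of Tlr4, a proposed receptor of resistin, at -0.33 ± 0.14 (adjusted p = 0.226, and 0.0310 and 0.0388 on blocking by replicate number and by slide) and Adipor2, a receptor of adiponectin, at -0.31 ± 0.11 (adjusted p = 0.152). The hormone transcripts Adipoq and Retn differed between RV and LV by more than those of any receptor listed. That of Lep, at -0.15, differed by less than those of Tlr4 and Adipor2.

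White fat cell markers outside the 10 genes gave 5 higher calls of 13 tested (19 were listed), with a median difference of 0.61. Of all probes tested, 2.31% were called higher, but this list was chosen with earlier results of these data known. Its share of calls describes the genes listed and is no test of them as a group. Lower in the RV, though not called, were Mrap (-0.34), Lrg1 (-0.25) and Pnpla8 (-0.17). The widest were Car3, a carbonic anhydrase abundant in fat, at 4.93 ± 0.51 (adjusted p = 0.00278), Hp, haptoglobin, at 4.01 ± 0.48 (adjusted p = 0.00377) and Cyp2e1, a cytochrome P450, at 3.92 ± 0.38 (adjusted p = 0.00248). Npr3, the clearance receptor of natriuretic peptides, was called at 1.32 ± 0.29 (adjusted p = 0.0404), in 2 of 10 fits without 1 array. Car3 was also called against the septum, at 2.71 ± 0.51 (adjusted p = 0.0317), in 3 of 10 such fits and not on blocking by replicate number (2.61, adjusted p = 0.0581).

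Brown fat markers gave no higher call of 9 and 2 lower ones. Kcnk3, a potassium channel, differed by -0.72 ± 0.11 from the LV (adjusted p = 0.0100) and by -0.58 ± 0.11 from the septum (adjusted p = 0.0352), and Cpt1b, the mitochondrial carnitine palmitoyltransferase of muscle and brown fat, by -0.47 ± 0.11 from the LV (adjusted p = 0.0485). Ucp1, the uncoupling protein that defines brown fat, was not well above background on any of the 10 arrays. Without LV replicate 2 the Kcnk3 difference from the LV was -0.69 (adjusted p = 0.0519), above the threshold, and the calls of Kcnk3 against the septum and of Cpt1b each held in 1 of 10 fits without 1 array.

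**Figure D3:**
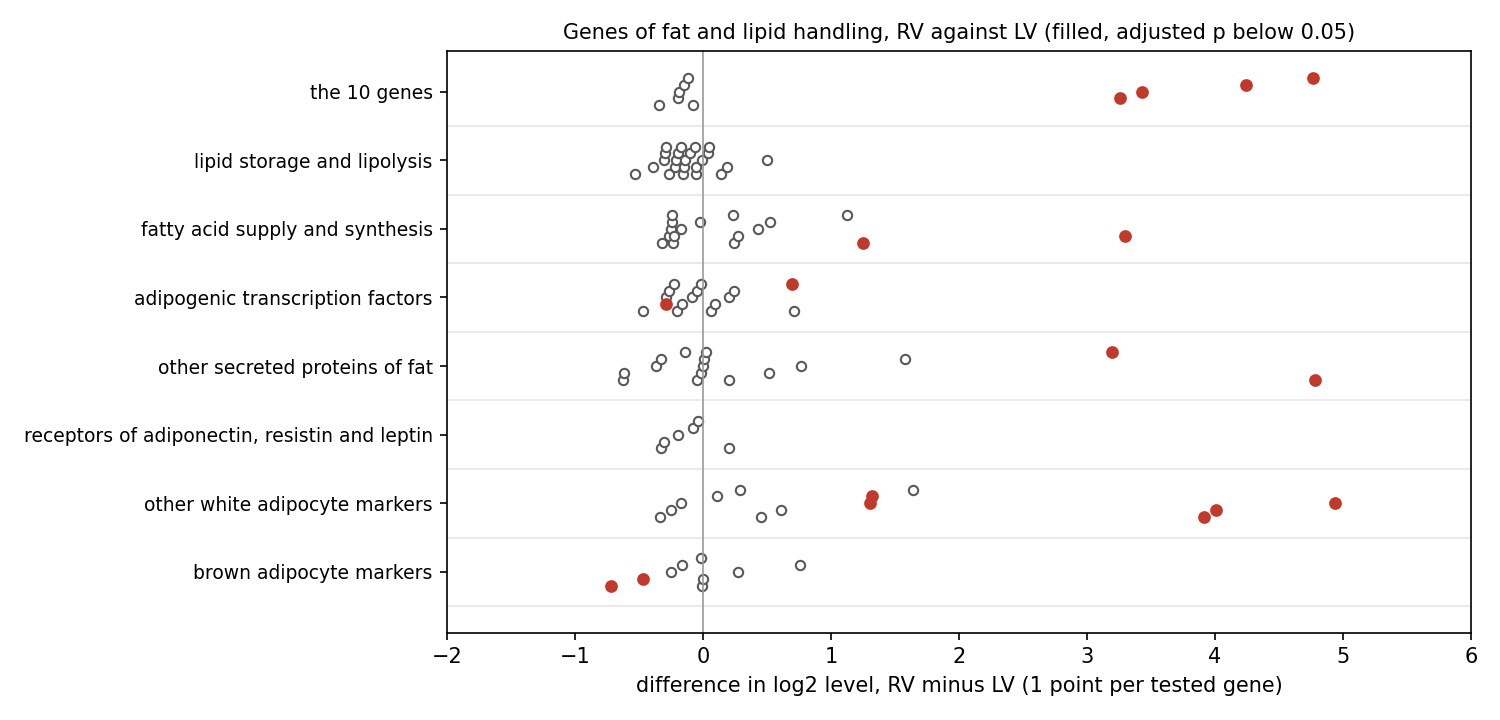
Difference of the mean log2 level between RV and LV (x axis) for each tested gene of the 10 genes and the 7 lists (rows; points are offset vertically to be seen; filled, adjusted p below 0.05). Filled points above 3 appear for 4 of the 10 genes, Pck1, Cfd, Rbp4, Car3, Hp and Cyp2e1, and none for droplet and lipolysis genes or receptors.

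A score was taken as the mean of the 10 genes after each was centred on its own mean. It was 0.52 to 0.88 in the RV, -1.04 to -0.64 in the LV and 0.37, -0.23 and -0.33 in the septum. The 10 other genes most like it, by Pearson r over the 10 arrays among 14609 genes, were Cfd (0.988), Hp (0.987), Car3 (0.983), Cyp2e1 (0.973), Cdo1 (0.970), Ccl19 (0.966), Flrt2 (0.962), Sfxn3 (0.957), Cib2 (0.952) and Apoc1 (0.951). Because the 4 called genes move most, the score follows them. The score itself steps from LV to RV, so genes picked by their r with it differ between these regions by selection. Their differences and p-values below describe them and are no separate result. Cdo1, which degrades cysteine and is abundant in fat, was at least 4.83-fold higher in the RV than in the LV, a bound because no LV array was well above background (fitted 2.55 ± 0.27, adjusted p = 0.00307), and Apoc1, an apolipoprotein, exceeded the LV by 2.15 ± 0.18 (adjusted p = 0.00181).

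Markers of other cells moved with the regions as well. Of 11 mesothelium markers, the cells that cover the heart, 1 was called higher in the RV than in the LV and 9 than in the septum, and their summed level was 14.8 to 37.9 in the RV, 8.37 to 12.9 in the LV and 4.09 to 8.20 in the septum. The septum was thus lowest for the mesothelium list, including its markers Msln and Upk3b, whereas the LV was lowest for Adipoq, Retn and Cidec. For Plin1 the order of LV and septum cannot be read. Of 10 fibroblast markers 3 were called higher in the RV than in the LV, with a summed level of 579 to 696 in the RV, 422 to 461 in the LV and 491 to 527 in the septum. Atrial muscle markers summed to 586 in septum array 1, the septum array with the highest levels of the 4 genes, and to 112 and 169 in the other septum arrays. They summed to 27.6 to 109 in the RV and to 104 to 152 in the LV, where the order was not shared throughout. LV array 1 had the highest LV sum but the lowest Retn and Cidec. Nppa, at 6.79, 6.55 and 6.48, made up most of each LV sum. Of the other tested atrial markers, Sln and Stard10 were highest in LV array 1, and Myl7, Myl4 and Nr2f1 in LV array 3. Nppa differed by -2.21 between RV and LV, and the other tested markers by -0.09 to 0.51. RV array 4 had the lowest sum but the highest Adipoq and Cidec of the RV, whereas RV array 1 had the highest RV sum and the highest Retn and Plin1. None of the 6 tested atrial markers was called, with 1 at an unadjusted p below 0.05 in each limma comparison, and of 12 heart muscle markers 0 were called higher and 2 lower in the RV than in the LV. Blood and lymphocyte lists gave 0 calls of 6 and 7 in each comparison, with 0 at an unadjusted p below 0.05, and 1 of 9 endothelium markers was called higher in the RV than in the LV. The part of the mesothelium, fibroblast and atrial transcripts in the values of the 10 genes was not tested.

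**Figure D4:**
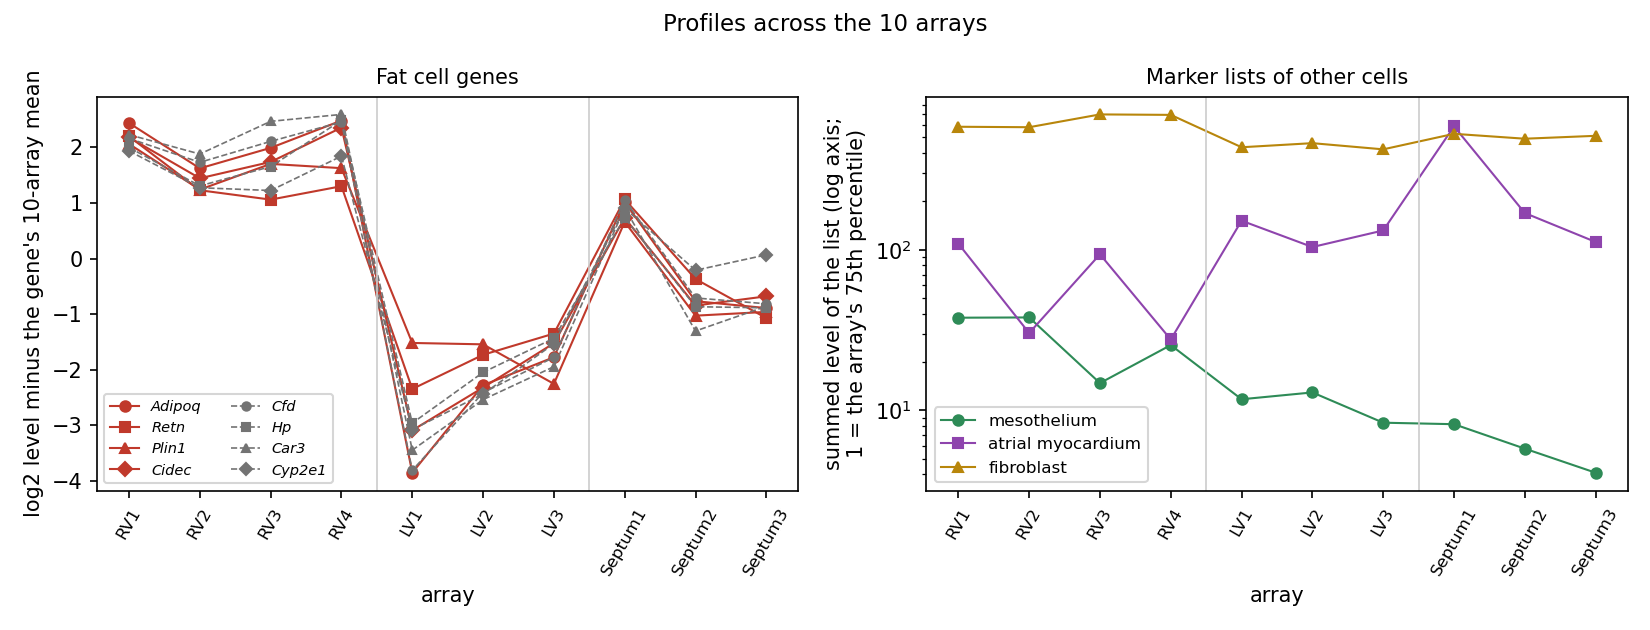
Left, log2 level centred on each gene's mean for Adipoq, Retn, Plin1 and Cidec (solid) and the 4 genes most like the 10-gene score (dashed), array by array. Right, summed level of 3 marker lists on a log axis (1 is the 75th percentile of the array). The 8 genes read lowest in the LV, though Plin1 was mostly at background in both LV and septum. The mesothelium list is lowest in the septum and the atrial list is highest in septum array 1.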

How the data were processed

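Array files of 4 RV, 3 LV and 3 septum samples were analysed, grouped by their titles. The authors made the deposited intensity values with Agilent Feature Extraction (version 11.5.1.1, per the submitters' processing notes), which subtracted background, removed spatial trends and flagged spots. The authors also deposited a log2 table, made with GeneSpring, whose values lay within 0.05 of those computed here for 100.0% of probes once a constant was removed, and which served as an alternative. Its column medians were near -3 because the 75th percentile of each array lies near 0.

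Here log2 of the processed signal was taken, control and outlier spots were left out, repeat spots were averaged per probe and each array was set to 0 at its 75th percentile. A probe was kept if all arrays of some region read it well above background (30236, 53.4%). RefSeq accessions named 32994 of 56605 probes (58.3%) through a table on assembly GRCm38.p6, which differs from that of the array files, so coordinates are given only for the promoters of that table. The brightest probe stood for a gene. Regions were compared in 1 limma model (version 3.58.1, R 4.3.3) with a mean per region over all 10 arrays (2.46 prior degrees of freedom), two-sided, with Benjamini-Hochberg adjustment over all probes tested. Tested on simulated data for RV against LV (30177 probes), this recovered 74% of changes of 1, 95.5% of changes of 2 and 99.5% of changes of 4 on the log2 scale. The simulated noise was independent between arrays. It left out the deviations that arrays of a slide share, given below, so recovery on the real arrays may differ.

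All 10 genes are named. From each list of related genes the called ones are named, at most 4, or the 2 widest where none was called, and then the 10 genes most like the score. The members and lists were chosen with earlier results of these data known. Arrays of the same slide deviated together. The correlation of deviations from the group means was 0.360 to 0.645 in 9 same-numbered pairs and 0.0902 to 0.577 in 8 pairs of other numbers on the same slide. It was -0.56 to -0.21 in 16 pairs on different slides. On the second slide RV array 4 had 0.571 with LV array 3 and 0.577 with septum array 3, above the 0.426 and 0.443 of RV array 3. The replicate numbers come from the titles, which do not say whether a number is 1 heart, and were taken as pairs. RV replicate 4 has no partner in the other regions. The replicate block therefore gives the same differences as the fit without RV replicate 4, and only their spread is changed by the pairing. Normexp correction used an offset of 50 and the median signal of each spot, since the files used here hold no mean signal.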

Additional observations from a re-analysis of the deposited data

How the results depend on the processing

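The alternatives were 3 other scalings (quantile, median, 75th percentile of probes well above background on all arrays), normexp background correction, the authors' table, no filter, a filter on every array, the dimmest probe, the slide or replicate number as a block, each slide alone, only the 2 regions compared, the methods' analysis of variance and leaving out each array. Of the members' differences, 688 kept their direction and side of the threshold, 25 lost a call, 15 gained one and 16 changed sign. The count of members called in RV against LV, 4, became 2 with the filter on every array, which removes Adipoq and Plin1, and was 4 in every fit without 1 array. Against the septum 2 became 0 with no filter, within slide 1 and with only the 2 regions compared, 1 with the filter on every array and with the replicate block, 4 by the unadjusted analysis of variance and 0 to 4 without 1 array. In septum against LV 0 became 2 by the analysis of variance, adjusted or not. Pathway calls in RV against LV (13) became 6 with no filter, 39 with the slide block, 32 with the replicate block, 5 within slide 2, 34 by the unadjusted analysis of variance and 6 to 12 without 1 array. Those against the septum (4) became 7 with normexp, 1 with no filter, 18 and 12 with the slide and replicate blocks, 1 with only the 2 regions, 20 and 8 by the analysis of variance unadjusted and adjusted and 0 to 7 without 1 array. In septum against LV 0 became 9 and 7. Calls over all probes that were higher in the RV were 59.7% against the LV and 58% against the septum, but 75.9% with the detected 75th percentile and 73% with the median. The slide block changed 1 member call, that of Adipoq against the septum. The replicate block, which both pairs the arrays and sets aside RV replicate 4, changed the calls of Cidea and Cidec, given above, and no other member's call. The changed signs were all of differences that were not called. In RV against LV they were Lep within slide 1 (0.0058) and Lgals12 within slide 1 (0.084) and without RV replicate 3 (range without 1 array -0.17 to 0.021). Against the septum they were Lep within slide 1 (0.11) and without RV replicate 3 (-0.14 to 0.0013) and Lgals12 within slide 1 (0.042). In septum against LV they were Plin4 with quantile scaling (0.0069) and without LV replicate 3 or septum replicate 1 (-0.11 to 0.048), Pparg without LV replicate 3 or septum replicate 1 (-0.18 to 0.042), and Lgals12 with quantile scaling (-0.016), median scaling (-0.039), within slide 2 (-0.0069) and without LV replicate 3 or septum replicate 2 (-0.067 to 0.12). The cause was not tested. Signal over background limits Adipoq, Plin1, Pck1 and Cdo1, whose LV arrays give only bounds, and Plin1 and Pck1 in the septum, each above background on 1 of 3 arrays.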
